A study of Homo sapiens with 12 samples.

Results

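The inactivation of KDM4C by one guide RNA, sg3, was examined in HEL cells against a guide directed at luciferase, across every gene of the deposited count table. The comparison took 4 libraries whose titles name the knockout with sg3 and 4 libraries whose titles name the control, so 8 of the 12 libraries of the series. The other 4 carried a second guide against KDM4C, sg2, and were used for the common estimate of the spread and for values side by side. HEL is an established human erythroleukemia line that carries an activating JAK2 mutation.

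All groups were HEL cells that stably express the Cas9 nuclease and were kept in blasticidin. The control cells (genotype WT in the labels) received a lentiviral guide against luciferase, a gene the human genome does not hold, and the sg3 cells (genotype KDM4C Knockout) received a lentiviral guide against KDM4C. The labels give puromycin at 1.5 µg/mL over 11 days for selection. Columns of the deposited table mention the vehicle DMSO for every library, and the labels mention no drug. Each library is a bulk, selected population and not a clone, so it can hold cells with different edits or none. The study's methods place the quadruplicates at the culture with drug or vehicle that followed selection, and its statistics section gives quadruplicates for RNA sequencing. No source used here says that the 4 replicates came from separate transductions. The p-values thus measure only a spread among samples that may be technical.

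KDM4C (JMJD2C) is a Jumonji-domain demethylase that removes methyl groups from lysine 9 of histone H3, a mark of silent chromatin, and from lysine 36, a mark of transcribed gene bodies. KDM4A, KDM4B and KDM4D are its close relatives. These enzymes need iron, oxygen and 2-oxoglutarate, as do the prolyl hydroxylases that control hypoxia-inducible factor. HEL cells express fetal and embryonic globins together with megakaryocytic surface proteins, and their growth depends on JAK-STAT signalling.

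The sg3 target is shown first because it fixes which part of the gene was cut. The guide matched hg38 at chr9:6984259-6984278 on the minus strand of KDM4C, in coding exon 9 of the 21 of the canonical transcript (GENCODE annotation). Capitals mark the adjacent PAM, and the second line gives the site within its surroundings, chr9:6984229-6984308, on the same strand.
sg3: ggtcatctgtgactgagtcgGGG
KDM4C site: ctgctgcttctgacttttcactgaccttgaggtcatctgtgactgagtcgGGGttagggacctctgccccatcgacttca
The predicted cut falls at residue 404 of 1056, so 38.2% of the protein lies before it. The genome held 1 exact match of sg3, none with 1 or 2 differences, and 2 sites with 3 differences next to an NGG motif. With positions counted from 1 at the 5′ end of the guide, these were C4G, A5G and C19G at an intergenic site on chromosome 11 (chr11:76182470-76182489), and C7A, C13T and T14G at a site in an intron of RAD51B on chromosome 14 (chr14:68572991-68573010). For comparison, sg2 cuts further downstream, in coding exon 12 at residue 637.

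Total counts lay between 13247734 and 78966125 in the control libraries and between 13631749 and 20691332 in the sg3 libraries. Levels are given as CPM, the counts of a gene scaled to a fixed library total, after TMM normalization, and changes as log2 fold changes from edgeR with their standard error (SE). The cells carried erythroid and megakaryocytic transcripts in both groups, with HBG2 at 2922 ± 400.4 and 2942 ± 178 CPM (SD, n = 4), GATA1 at 239 ± 4.46 and 266 ± 8.63 CPM, and ITGA2B above 1000 CPM. Among markers of other cell types CD3D (T cells), MS4A1 (B cells) and DCN (fibroblasts) had at most 2 counts in any of the 8 libraries, while other members of those lists were expressed and are described with the cell type lists. Within groups the libraries were not equally alike. The reduced chi-square of the counts was 1.71 for sg3 libraries 1 and 2 and 4.001 for 3 and 4, against 6.35 to 12.5 for the other sg3 pairs, and it was 2.10 for control libraries 1 and 3 and 4.02 for 2 and 4, against 6.55 to 7.79 for the others. The sg2 libraries also split, with 2.92 for libraries 1 and 2 and 2.46 for 3 and 4, against 3.79 to 7.14 for the other pairs. Several results that rest on these subsets are therefore also given without sg3 libraries 3 and 4 or without control libraries 2 and 4.

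KDM4C mRNA was slightly lower with sg3. It measured 67.8, 70.2, 68.1 and 71.4 CPM in control libraries 1 to 4 and 59.5, 60.8, 63.3 and 63.2 CPM in sg3 libraries 1 to 4. Every sg3 library lay below every control library, and the distance was small beside the level itself. The log2 fold change was -0.17 ± 0.07 (SE), with an adjusted p of 0.0499 by edgeR, but 16 of 25 alternatives did not call it. With sg2 the level was 47.1 ± 6.62 CPM and the log2 fold change -0.57. Counts cover the whole gene whether or not a transcript carries an edit, so the share of edited alleles was not measured. The level of KDM4C protein cannot be read from these counts. For its knockout cells the paper reports that deletion was established by Western blotting and PCR.

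Among the relatives, KDM4B, which acts on the same lysines, rose. It measured 49.4, 52.8, 50.2 and 52.6 CPM in the control libraries and 87.4, 90.04, 93.7 and 100.5 CPM with sg3. The lowest sg3 library held more than the highest control library, and the log2 fold change was 0.86 ± 0.08 (SE, adjusted p = 9.71e-07 by edgeR). KDM4A was level with control, at 103 ± 2.48 CPM (SD, n = 4) against 104 ± 5.28 CPM, and the groups overlapped. KDM4D, with a mean of 2.17 ± 0.505 CPM in control (SD, n = 4), had a log2 change of 0.36 (adjusted p = 0.0995 by edgeR) and was not called, although it was without control library 3 (0.47). JAK2 itself had a log2 change of 0.02 (adjusted p = 0.765 by edgeR).

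**Figure D1:**
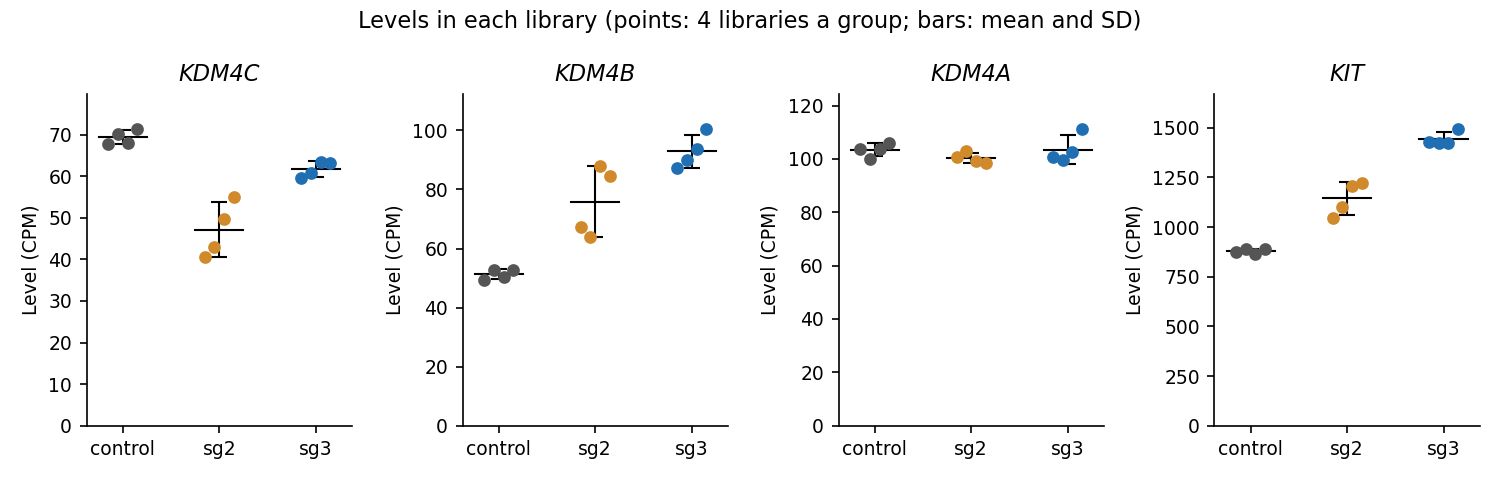
Level (CPM, linear axis from 0) of KDM4C, KDM4B, KDM4A and KIT in the control, sg2 and sg3 libraries. Points are single libraries, horizontal lines the group mean and bars the SD (n = 4). KDM4C in sg3 (61.7 CPM) lies between sg2 (47.1 CPM) and control (69.4 CPM), KDM4B and KIT are highest in sg3, and KDM4A overlaps between groups.

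Many genes differed, most of them by little. Of 13996 genes tested, 6179 (44.1%) were called at an adjusted p below 0.05 by edgeR, 3070 (21.9%) higher and 3109 (22.2%) lower with sg3. With upper-quartile factors 3449 were higher and 2687 lower. Called changes had a median size of 0.30 on the log2 scale, with 263 rises (1.88%) and 156 falls (1.11%) of 1 or more. The 4 sg3 libraries lay wholly above the 4 control libraries for 2827 genes (20.2%) and wholly below them for 2735 (19.5%). Over all genes tested the median log2 fold change was -0.01, and the gene lists below are to be read against that value and these shares. In bulk RNA, fewer cells that express a gene and less RNA per cell cannot be told apart.

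**Figure D2:**
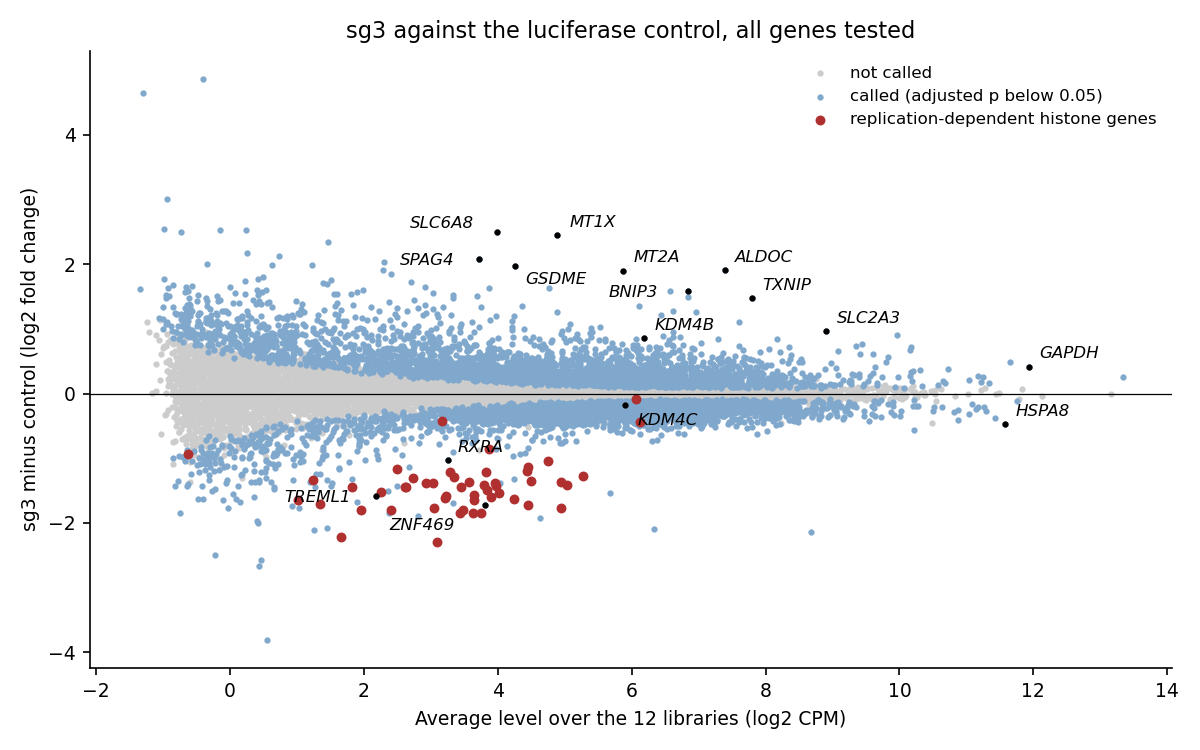
Log2 fold change of sg3 against control (vertical axis) by the average log2 CPM over the 12 libraries (horizontal axis) for the 13996 genes tested. Blue points were called by edgeR, grey points were not, red points are replication-dependent histone genes, and black points are named genes. Among genes above 2 on the horizontal axis SLC6A8 has the largest rise (2.50), and many of the falls beyond -1 are histone genes. The largest rises of all belong to genes near 0 CPM in control.

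The largest rise among coding genes whose log2 CPM averaged 2 or more was that of SLC6A8, the creatine transporter of the cell membrane. It measured 4.21, 4.88, 5.19 and 4.43 CPM in the control libraries and 26.2, 28.4, 24.9 and 27.2 CPM with sg3. The 4 sg3 libraries were close to each other and all lay far above control, with a log2 fold change of 2.50 ± 0.24 (SE, adjusted p = 9.15e-07 by edgeR). GATM, which makes the precursor of creatine, fell by 0.47. Of 5 measured genes of creatine metabolism 1 rose and 1 fell.

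GSDME, a gasdermin that forms pores in the cell membrane when cleaved by caspase-3, went from 7.29, 8.20, 7.46 and 7.06 CPM in control to 29.3, 30.5, 29.2 and 31.2 CPM with sg3. These groups were tight and did not overlap (1.98 ± 0.15, SE, adjusted p = 1.43e-07 by edgeR). The efflux transporter ABCC3 (MRP3) rose by 1.84, from 2.18 ± 0.414 to 8.11 ± 0.288 CPM (SD, n = 4). Among 25 measured ABC transporters 9 rose and 3 fell, and the most abundant, ABCC4, rose by 0.26. Further rises of the rule for named genes were ARHGAP39, a GTPase-activating protein (2.03), NTN4, a secreted netrin (1.91), FAM178B (1.73), ZC3H6 (1.65), the nuclear receptor coactivator PNRC1 (1.63) and the aldehyde dehydrogenase ALDH3B1 (1.56). The rule took only rises whose sg3 and control libraries did not overlap. Separation was thus a condition for these genes and for SLC6A8, GSDME and ABCC3.

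Metallothioneins, small proteins that bind zinc and copper, rose with a wide spread among the sg3 libraries. MT1X measured 8.08, 8.92, 10.1 and 6.84 CPM in control and 56.1, 54.4, 44.9 and 30.9 CPM in sg3 libraries 1 to 4. MT2A measured 20.7, 23.5, 25.4 and 20.2 CPM in control and 110.3, 101, 75.95 and 48.7 CPM with sg3. In both genes sg3 library 4 was the lowest of its group, and it still exceeded every control library. The log2 fold changes were 2.44 ± 0.27 for MT1X and 1.90 ± 0.27 for MT2A (SE, adjusted p = 3.23e-06 and 3.36e-05 by edgeR), and without sg3 libraries 3 and 4 they were 2.68 and 2.22. Of 11 metallothionein genes 5 were measured, 3 rose and none fell. Reads that fit several of these near-identical genes cannot be assigned to 1 of them. SLC30A1, the zinc exporter of the cell membrane, rose from 15.04, 15.1, 14.4 and 14.6 CPM to 29.9, 25.4, 27.2 and 25.5 CPM, and SLC30A3, which loads zinc into vesicles, fell from 28.7 ± 0.610 to 14.9 ± 1.85 CPM (SD, n = 4). Their groups did not overlap, in opposite directions. Of 18 measured zinc transporters and sensors 2 rose and 5 fell.

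The promoters of both metallothioneins are shown because they hold the core letters of the metal response element, which the zinc sensor MTF1 is known to bind. Capitals mark TGCACNC or TGCGCNC on either strand in the 250 bases before the start site (RefSeq, GRCh38.p14), at chr16:56682220-56682469 for MT1X and chr16:56608334-56608583 for MT2A, both on the plus strand.
MT1X: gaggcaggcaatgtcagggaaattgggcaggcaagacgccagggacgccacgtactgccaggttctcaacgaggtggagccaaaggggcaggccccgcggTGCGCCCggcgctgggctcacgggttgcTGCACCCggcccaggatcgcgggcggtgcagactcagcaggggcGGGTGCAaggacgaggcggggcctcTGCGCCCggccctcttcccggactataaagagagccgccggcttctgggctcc
MT2A: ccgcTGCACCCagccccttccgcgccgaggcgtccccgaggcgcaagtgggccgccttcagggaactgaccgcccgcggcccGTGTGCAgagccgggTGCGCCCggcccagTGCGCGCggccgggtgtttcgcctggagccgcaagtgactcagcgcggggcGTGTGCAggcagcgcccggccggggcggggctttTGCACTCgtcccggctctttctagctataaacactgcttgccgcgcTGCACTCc
There were 4 matches in MT1X and 7 in MT2A. Of 9695 coding genes tested that had a promoter in the RefSeq table, 33.1% held at least 1 match and 8.09% at least 2. A match describes the letters and does not show binding.

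Genes that respond to low oxygen mostly rose. Of 26 measured hypoxia-inducible genes (30 listed), 23 rose and none fell, with a median log2 fold change of 0.85 against -0.01 over all genes. The median lay between 0.79 and 0.93 in the single sg3 libraries and between -0.05 and 0.03 in the control libraries. With sg2 the list median was 0.69, and it was uneven over the libraries, at 0.51, 0.33, 0.97 and 0.83 in sg2 libraries 1 to 4. The sg2 medians given beside other lists likewise pool libraries that were not alike. The labels describe no low-oxygen step.

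BNIP3, a mitophagy receptor of the outer mitochondrial membrane, showed the pattern clearly. It measured 49.5, 53.8, 57.1 and 59.3 CPM in control and 170.2, 170.3, 159 and 159 CPM with sg3. Every sg3 library lay far above every control library, with a log2 fold change of 1.59 ± 0.14 (SE, adjusted p = 5.48e-07 by edgeR). The transcriptional repressor BHLHE40 measured 39.5, 46.9, 46.7 and 45.4 CPM in control and 135, 139.7, 131 and 128 CPM with sg3. SPAG4, a SUN-domain protein of the nuclear envelope, measured 4.88, 5.24, 4.95 and 4.66 CPM in control and 20.5, 23.05, 20.4 and 21.01 CPM with sg3. Both were far apart from control, with log2 fold changes of 1.58 ± 0.13 and 2.09 ± 0.18 (SE). The angiogenic ligand VEGFA rose by 0.90, whereas EGLN3, an oxygen-sensing prolyl hydroxylase, had a log2 change of -0.17 (adjusted p = 0.149 by edgeR) and was not called. DDIT4 and KDM3A belong to this list and are described with mTOR and with the demethylases.

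Glucose metabolism moved in the same direction. Of 29 genes of glycolysis and glycogen metabolism, 22 rose and 1 fell, with a median of 0.38 (sg2, 0.25). ALDOC, the brain-type aldolase, measured 62.5, 69.7, 73.2 and 64.8 CPM in control and 251, 264, 244 and 253 CPM with sg3. PFKFB4, which sets the level of the glycolytic activator fructose 2,6-bisphosphate, measured 54.3, 58.8, 61.1 and 58.4 CPM and 166, 160.4, 157 and 172 CPM. In both genes the groups were separated by a wide margin (1.90 ± 0.14 and 1.50 ± 0.13, SE). The glucose transporter SLC2A3 rose by 0.97, phosphoglycerate kinase PGK1 by 0.74, lactate dehydrogenase LDHA by 0.57 and GAPDH, the most abundant member, by 0.41. PFKFB3, the relative of PFKFB4, was the member that fell (-0.41).

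The promoters of BNIP3 and BHLHE40 are shown because both genes are in the hypoxia list and among the 15 largest rises without overlap. The third such gene, SPAG4, had no entry in the promoter table. Capitals mark ACGTG, the core bound by hypoxia-inducible factors, on either strand, with overlapping matches counted once. The windows are chr10:131981924-131982173 on the minus strand for BNIP3 and chr3:4979187-4979436 on the plus strand for BHLHE40 (GRCh38.p14).
BNIP3: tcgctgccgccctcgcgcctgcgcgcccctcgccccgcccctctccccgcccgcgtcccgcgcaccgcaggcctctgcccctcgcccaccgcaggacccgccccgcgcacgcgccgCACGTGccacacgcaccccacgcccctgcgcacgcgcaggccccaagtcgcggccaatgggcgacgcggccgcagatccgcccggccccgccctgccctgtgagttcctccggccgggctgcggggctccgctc
BHLHE40: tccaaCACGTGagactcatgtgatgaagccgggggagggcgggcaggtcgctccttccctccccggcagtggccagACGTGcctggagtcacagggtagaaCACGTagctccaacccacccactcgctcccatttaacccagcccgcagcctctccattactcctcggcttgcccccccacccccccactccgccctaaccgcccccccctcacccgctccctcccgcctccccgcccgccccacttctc
Of 20 measured members of the hypoxia list with a promoter in the table, 15 (75%) held ACGTG, against 23.2% of the 9695 promoters of all coding genes tested. For glycolysis and glycogen genes the share was 37%. The hypoxia list was made of genes known to be hypoxia-inducible, and its promoters include those of CITED2 and EGLN3, which were not called. Its share therefore describes the list and is not evidence on what sg3 changed. The core is also part of the letters CACGTG, which other factors bind.

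Sterol synthesis rose as a block of moderate changes. Of 24 measured genes of cholesterol synthesis and uptake, 20 rose and none fell, with a median of 0.38 (sg2, 0.31). HMGCS1, which makes the precursor of mevalonate, measured 480.1, 488, 494 and 471 CPM in control and 841, 879.8, 806 and 745 CPM with sg3. MSMO1, a sterol demethylase of the late pathway, measured 66.6, 61.6, 63.8 and 62.9 CPM and 116, 120.1, 109.9 and 107 CPM. Neither gene overlapped between groups (0.76 ± 0.07 and 0.83 ± 0.06, SE). CYP51A1, another sterol demethylase, rose by 0.68. The mevalonate pathway kinase PMVK (-0.18) was not called, but was called without sg3 library 2 (-0.26). Among 23 genes of fatty acid synthesis 11 rose and 3 fell. The acetyl-CoA synthetase ACSS2 had the largest called change (0.74).

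**Figure D3:**
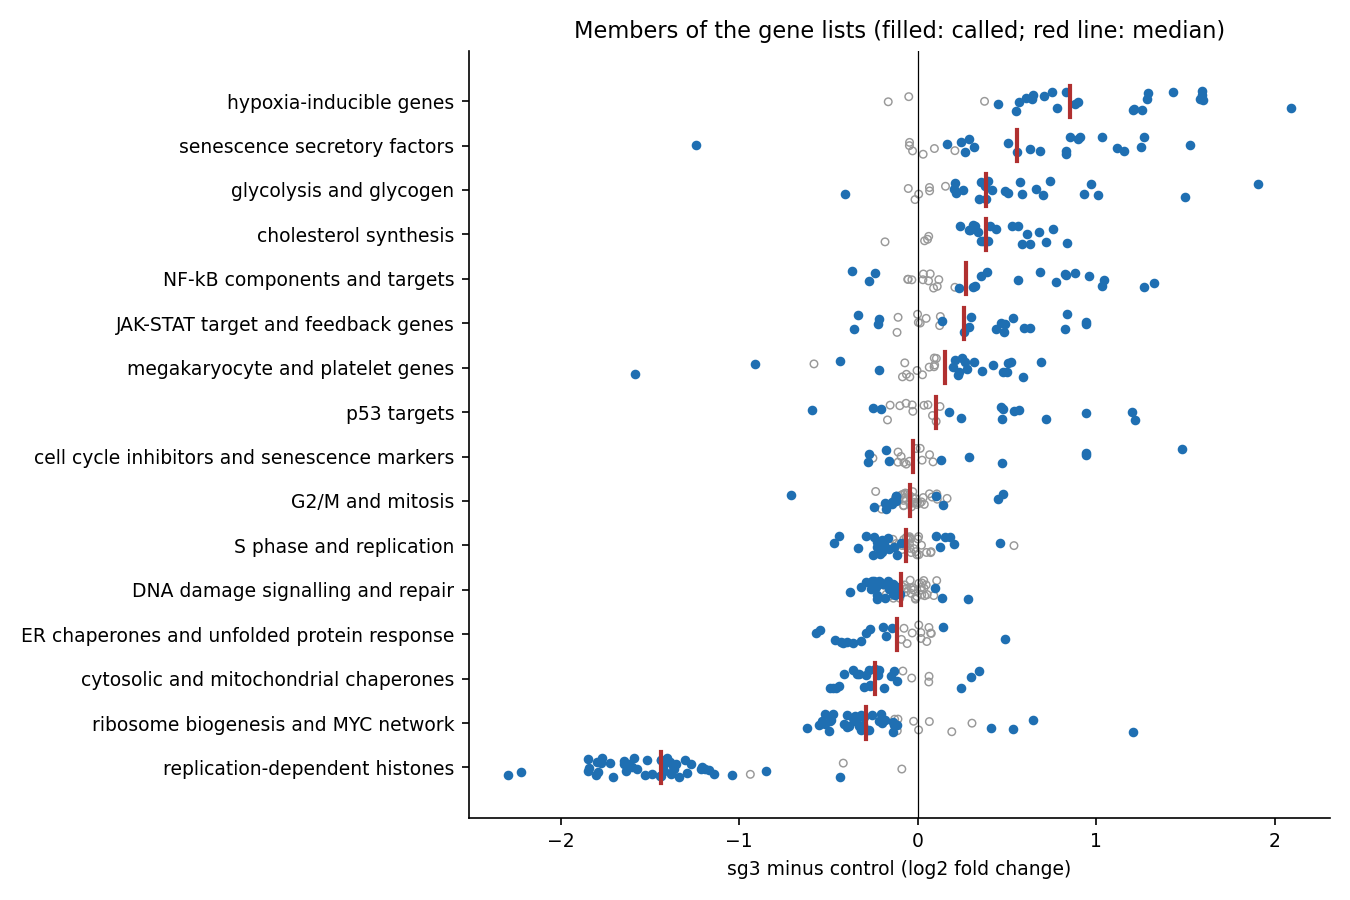
Log2 fold change of sg3 against control (horizontal axis) for the measured members of 16 gene lists. Each point is a gene, filled where called by edgeR, and the red line is the list median. Medians run from 0.85 for hypoxia-inducible genes to -1.44 for replication-dependent histones, and the cell cycle and p53 lists lie near 0.

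Transcripts of the secretory phenotype of senescent cells were mostly higher. Of 27 measured factors (44 listed), 20 rose and 1 fell, with a median of 0.56 (sg2, 0.46). Without control libraries 2 and 4 the count of rises was 13, and with a minimum count of 50, which left 21 members, the median was 0.30. IL1B, an inflammatory cytokine, measured 31.3, 28.1, 25.8 and 27.6 CPM in control and 61.3, 61.1, 51.99 and 57.2 CPM with sg3. GDF15, a stress-induced ligand, measured 3.24, 5.93, 5.30 and 4.81 CPM and 11.6, 14.4, 14.8 and 16.1 CPM. The sg3 libraries lay above every control library in both genes (1.03 ± 0.07 and 1.53 ± 0.20, SE). The chemokine CXCL8 rose by 1.26 from a level near 1 CPM, the receptor TNFRSF1B fell by 1.24, and IGFBP5, the most abundant member, had a log2 change of -0.05 (adjusted p = 0.293 by edgeR). IL1B, CDKN1A, BCL2, THBS1 and MTOR are genes that the study names from these samples, so their direction is not independent evidence.

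The cyclin-dependent kinase inhibitor CDKN1A (p21) measured 4.58, 5.32, 4.66 and 5.18 CPM in control and 9.36, 10.1, 10.3 and 8.13 CPM with sg3. The groups did not overlap, and the log2 fold change was 0.94 ± 0.11 (SE, adjusted p = 6.33e-06 by edgeR). Of 22 measured cell cycle inhibitors and senescence markers 6 (27.3%) rose and 4 (18.2%) fell, near the shares over all genes (21.9% and 22.2%). The list median was -0.03, and the lowest change of a member was -0.28. The rises included TXNIP, a thioredoxin inhibitor that follows glucose, from 111 ± 3.80 to 310.2 ± 4.78 CPM (SD, n = 4), and the pocket protein RBL2 (0.47). Of 25 p53 targets 11 rose and 3 fell, with a median of 0.10, and TP53INP1 (1.21) and CCNG2 (1.20) had the largest changes. In the BCL2 family 6 of 14 rose and 3 fell. The pro-apoptotic BMF rose by 1.35, the anti-apoptotic BCL2 by 0.61, and the effector BAK1 fell by 0.34.

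In signalling, receptors and feedback genes of the JAK-STAT pathway rose more often than they fell. Of 22 components 8 rose and none fell, among them the shared cytokine receptor chain CSF2RB (0.49), the colony-stimulating factor receptor CSF3R (1.21) and STAT5B (0.30). Of 27 target and feedback genes 15 rose and 4 fell, with a median of 0.26 (sg2, 0.16). SOCS3, an inhibitor of JAK kinases, measured 102, 108, 109.9 and 107 CPM in control and 193, 199.97, 184 and 186 CPM with sg3. PIM1, a survival kinase, measured 721, 735, 741 and 707 CPM and 1016, 1018, 1013 and 1014 CPM. Both were apart from control in every library (0.84 ± 0.06 and 0.48 ± 0.04, SE). The cyclin CCND1, near 1 CPM, rose by 0.94, and this call was lost after thinning to the shallowest library (0.79) and without control libraries 2 and 4 (0.72).

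NF-kB components and targets had 16 rises and 3 falls among 30 genes (median 0.27, sg2 0.13), including the adaptor TRAF1 (1.32), the apoptosis inhibitor BIRC3 (1.04) and the coactivator BCL3 (0.82). Of 33 AP-1 and immediate early genes 17 rose and 7 fell. JUN rose by 0.84 and MAFF by 0.80, KLF2 rose by 2.53 from 0.251 ± 0.0311 CPM (SD, n = 4), and MYC fell from 581, 581, 587 and 572 CPM to 480.5, 498, 497 and 521 CPM. MYC was lower in every sg3 library by a modest amount (-0.22 ± 0.03, SE). In the PI3K and mTOR pathway 12 of 32 genes rose and 10 fell. The inhibitors of mTOR DDIT4 (1.26), DEPTOR (0.95) and SESN3 (0.93) rose, and the kinase MTOR fell from 229, 231, 218 and 242 CPM to 160.5, 163, 179 and 196 CPM (-0.40 ± 0.07, SE). The groups did not overlap, and sg3 library 4 was nearest to control.

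Antigen presentation by MHC class I showed 6 rises and 3 falls among 13 genes. B2M, the light chain of class I molecules, measured 169, 156, 161 and 195 CPM in control and 217, 215, 282 and 286 CPM with sg3. The levels were uneven within sg3, lower in libraries 1 and 2 than in 3 and 4, and above every control library (0.56 ± 0.09, SE). HLA-B rose by 0.64, and the chaperone CALR fell by 0.32. HLA-B and B2M also lie on alternate sequences of the assembly, where reads may have been lost or shared. The inflammasome substrate IL18 rose by 0.37, a call that was lost after thinning to the shallowest library and without control libraries 2 and 4. The autophagy receptor OPTN rose by 0.96, and of 44 autophagy and lysosome genes 17 rose and 6 fell.

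Genes that build ribosomes fell together. Of 46 genes of ribosome biogenesis and the MYC network 34 fell and 4 rose, with a median of -0.29 (sg2, -0.21). RRS1, an assembly factor of the large subunit, measured 87.9, 86.7, 88.4 and 84.5 CPM in control and 58.3, 56.2, 59.02 and 52.03 CPM with sg3. The nucleolar protein NCL measured 2858, 2802, 2883 and 2699 CPM and 2344, 2373, 2370.3 and 2199 CPM. Both lay below control in all 4 sg3 libraries (-0.62 ± 0.06 and -0.28 ± 0.04, SE), and NIP7 fell by 0.55. The MYC antagonist MXI1 was the largest of the 4 rises (1.20). Among 49 translation initiation factors 24 fell and 12 rose, with EIF2S1 falling by 0.50 and EIF4B rising by 0.36.

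Chaperones fell as well. Of 27 cytosolic and mitochondrial chaperones 20 fell and 3 rose, with a median of -0.24. HSPA8, the constitutive HSP70, measured 3694, 3723, 3785 and 3558 CPM in control and 2698, 2669, 2629 and 2639 CPM with sg3. The sg3 values were tightly grouped and all below control (-0.47 ± 0.06, SE, adjusted p = 6.12e-06 by edgeR). Its partners HSPH1 and DNAJA1 fell by 0.49 and 0.46. In the endoplasmic reticulum 13 of 26 chaperones and stress genes fell and 2 rose, with HYOU1 falling by 0.57 and the stress factor DDIT3 rising by 0.49. Like HLA-B and B2M, HYOU1 lies on more than 1 sequence of the assembly, where reads may have been lost or shared.

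Cell cycle and repair genes changed by small amounts, and more of them fell than rose. Of 50 genes of S phase and replication 17 (34%) fell and 6 rose (median -0.07). Of 46 of G2/M and mitosis 9 (19.6%) fell and 4 rose (median -0.04), against 22.2% falls over all genes. The checkpoint mediator CLSPN fell by 0.44, the polymerase subunit POLE2 by 0.47 and the ubiquitin-conjugating enzyme UBE2C by 0.71, whereas the licensing factor CDT1 rose by 0.46 and the kinase BUB1 by 0.47. Of 56 genes of DNA damage signalling and repair 20 (35.7%) fell and 3 (5.36%) rose, with a median of -0.09. The median of this list lay between -0.11 and -0.07 in the single sg3 libraries and between -0.01 and 0.01 in the control libraries. The kinase ATR measured 72.4, 75.5, 65.5 and 76.5 CPM in control and 53.01, 55.7, 57.3 and 56.99 CPM with sg3. It was lower in every sg3 library (-0.38 ± 0.06, SE), while PRKDC (-0.21) and XRCC4 (0.28) overlapped between groups. Both lost their calls without control libraries 2 and 4 (-0.13 and 0.15), and XRCC4 did so in 5 other alternatives.

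Among enzymes that write and erase histone methylation, KDM3A, an H3K9 demethylase that is also in the hypoxia list, measured 93.9, 97.1, 92.7 and 102 CPM in control and 165, 160.1, 166 and 171 CPM with sg3. The H3K4 demethylase KDM5B rose by 0.56, and RIOX1, a nucleolar Jumonji oxygenase, fell by 0.72. Of 18 measured lysine demethylases outside the KDM4 family 6 rose and 2 fell. The H3K9 methyltransferase SUV39H2 measured 71.6, 65.2, 69.6 and 69.6 CPM and 55.9, 53.4, 54.4 and 49.7 CPM. It was lower in each sg3 library (-0.37 ± 0.05, SE), and 5 of 15 genes of H3K9 methylation fell and 2 rose. Of 16 genes of H3K36 methylation 8 fell and 2 rose, with falls by 0.47 for SETMAR and by 0.15 for SETD2, the trimethylase, whose call was lost in 5 alternatives. Zinc finger genes on chromosome 19 are a family whose clusters are known to carry H3K9 and H3K36 methylation. Of 208 such genes 41 (19.7%) fell and 15 (7.21%) rose (median -0.09). Of 238 on other chromosomes 59 (24.8%) fell and 35 (14.7%) rose (median -0.04). Falls were thus about as frequent as over all genes (22.2%), and rises were less frequent (21.9% over all genes).

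Lineage genes moved in parts. Of 32 megakaryocyte and platelet genes 16 rose and 4 fell, with a median of 0.15. ITGA2B, the platelet integrin, measured 1097, 1100.3, 1083 and 1107 CPM in control and 1327, 1355, 1441 and 1501 CPM with sg3. TREML1, a receptor of platelet granules, measured 6.70, 6.81, 7.05 and 7.74 CPM and 2.15, 2.76, 2.53 and 1.73 CPM. The integrin was higher and TREML1 lower in every sg3 library (0.36 ± 0.05 and -1.59 ± 0.14, SE). The receptor P2RX1 rose by 0.59, the phosphodiesterase PDE5A fell by 0.91 and the matrix protein THBS1 fell by 0.44. The transcription factor GATA2 rose by 0.34. Heme synthesis genes ALAS2 (0.53) and CPOX (0.53) rose, and of 25 genes of heme and iron 9 rose and 5 fell. Among 9 globins the embryonic HBZ fell (-0.30) and none rose. The sg3 libraries differed in direction, with globin medians of 0.26, 0.23, -2.4e-04 and -0.21 in libraries 1 to 4. The control medians lay between -0.09 and 0.07.

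Of 14 measured monocyte and granulocyte genes (32 listed) 9 rose and 2 fell. The growth factor receptor CSF1R rose by 1.51 from below 1 CPM, the myeloid factor SPI1 rose by 0.21, and CEBPA fell by 1.37. The summed level of that list was 310.5 to 319 CPM in control and 371 to 391 CPM with sg3, and that of an endothelial list was 793 to 810 CPM and 891 to 938 CPM. A list of T and natural killer cell genes summed to 141 to 153 CPM in control and 200.4 to 214 CPM with sg3, most of it CD4 (130.4 ± 5.47 against 184 ± 6.63 CPM, SD, n = 4), with CD3D at or near 0. Of its 7 measured genes 3 rose and none fell, and besides CD4 these were the cytotoxic granule genes PRF1 (1.03) and NKG7 (0.79). The B cell list, of which CD79A (0.54) and CD79B (0.45) of the B cell receptor were measured and rose, summed to 4.66 to 6.05 CPM in control and 6.65 to 9.60 CPM with sg3. The call of CD79A was lost after thinning to the shallowest library (0.45), and that of CD79B without control library 4 (0.38), sg3 library 1 (0.33) or control libraries 2 and 4 (0.38). The fibroblast list summed to 89.1 to 92.8 CPM and 97.9 to 101 CPM, and of 4 measured genes PDGFRB (0.94) and FBN1 (0.44) rose. The epithelial list summed to 37.0 to 41.6 CPM and 53.5 to 54.4 CPM, and of 3 measured genes the keratins KRT8 (0.90) and KRT18 (0.40) rose. Each of these sums was higher in all sg3 libraries than in any control library. The part of other cell types in these values was not tested.

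Among 24 ATF4 stress genes 11 rose and 5 fell, among 26 NRF2 antioxidant genes 4 rose and 8 fell, and among 38 interferon-stimulated genes 11 rose and 4 fell. Of 20 aminoacyl-tRNA synthetases 4 rose and 7 fell. Of 20 erythroid and megakaryocyte transcription factors 9 rose and 4 fell, of 24 red cell membrane genes 6 rose and 4 fell, and of 17 RXR and partner receptors 8 rose and 2 fell. Genes of transcription initiation mostly fell or were not called, with 18 falls (45%) and 1 rise among 40 and a median of -0.12. The median of this list was uneven within sg3, at -0.07, -0.10, -0.16 and -0.18 in sg3 libraries 1 to 4. In the control libraries it lay between -0.05 and 0.04. The largest fall, that of POLR2L (-0.53), overlapped between groups.

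Of the 15 largest falls among coding genes whose log2 CPM averaged 2 or more and whose sg3 and control libraries did not overlap, 11 were histone genes. Further histone genes with falls of this size are not among them because their libraries overlapped, such as H4C2 (-1.85). The change of H4C2, sg3 against control, was -0.90 without control libraries 2 and 4. The other 4 of the 15 were ZNF469, TMEM132E, TREML1 and PPP1R14C. ZNF469, a zinc finger gene mutated in brittle cornea syndrome, measured 23.8, 25.9, 22.4 and 22.8 CPM in control and 5.96, 8.03, 7.56 and 7.34 CPM with sg3. TMEM132E, a membrane protein, measured 17.1, 18.2, 15.4 and 17.95 CPM and 5.78, 4.22, 6.03 and 5.40 CPM. The libraries of both genes were close within groups and far apart between them (-1.72 ± 0.09 and -1.69 ± 0.10, SE). PPP1R14C, an inhibitor of protein phosphatase 1, fell by 1.51. Outside the naming rule NECTIN1, an adhesion protein, fell by 1.31. RXRA, a retinoid receptor, fell by 1.03, from 13.8 ± 0.455 to 6.80 ± 0.888 CPM (SD, n = 4).

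Of 1142 long non-coding genes tested 206 rose and 105 fell. Of 11963 coding genes 2762 rose and 2863 fell, and over all genes 21.9% rose and 22.2% fell. Rises were thus no more frequent among long non-coding genes than over all genes, while falls were less frequent. The divergent transcript SAP30-DT measured 2.79 ± 0.250 CPM in control and 7.45 ± 1.25 CPM with sg3 (SD, n = 4). GSEC rose by 1.32 and GLYCTK-AS1 by 1.02, while PWAR5 fell by 0.67. The stated counting options name no strand, so reads of an antisense gene and of its partner may not have been told apart.

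Replication-dependent histone genes, which are expressed in S phase and whose transcripts end in a stem-loop in place of a poly(A) tail, had the lowest median of any list. Of 50 measured genes (66 listed) 47 fell and none rose, with a median of -1.44 (sg2, -0.52). H4C13 measured 4.47, 20.7, 9.09 and 15.3 CPM in control and 2.80, 2.01, 3.92 and 1.37 CPM with sg3. H4C8 measured 24.3, 57.2, 36.2 and 60.1 CPM and 11.6, 10.4, 17.2 and 12.5 CPM. The control libraries split, with 2 and 4 high and 1 and 3 low, and the low ones came nearest to the sg3 libraries (-2.29 ± 0.45 and -1.77 ± 0.28, SE). Of the 50 genes, 12 had sg3 libraries wholly below the controls. Without control libraries 2 and 4 the median was -0.54, 7 genes fell and 1 rose, and H3C1 (-0.66) and H1-4 (-0.57) were no longer called. Without control library 2 alone 37 fell. Copies of these genes are near-identical, so counts of single members are uncertain.

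Other short transcripts without a poly(A) tail behaved likewise. Of 141 measured small nuclear, nucleolar and related RNAs 67 fell and 1 rose (median -0.70, sg2 -0.34). RN7SK, which holds the elongation factor P-TEFb inactive, measured 216, 1284, 333 and 731 CPM in control and 160.0, 154, 191 and 75.7 CPM with sg3. RMRP, the RNA of a nucleolar ribonuclease, measured 47.8, 247, 74.6 and 109 CPM and 35.2, 32.2, 32.5 and 13.5 CPM. Control library 2 was the highest in both genes and sg3 library 4 the lowest (-2.14 ± 0.46 and -2.09 ± 0.45, SE). Without control libraries 2 and 4, 33 of 157 tested fell and RN7SK was not called (-0.91), and without control library 2 alone 36 of 143 fell. How much such RNA a library holds depends on its preparation, the kit is not given in the sources used here, and its part in these values was not tested.

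**Figure D4:**
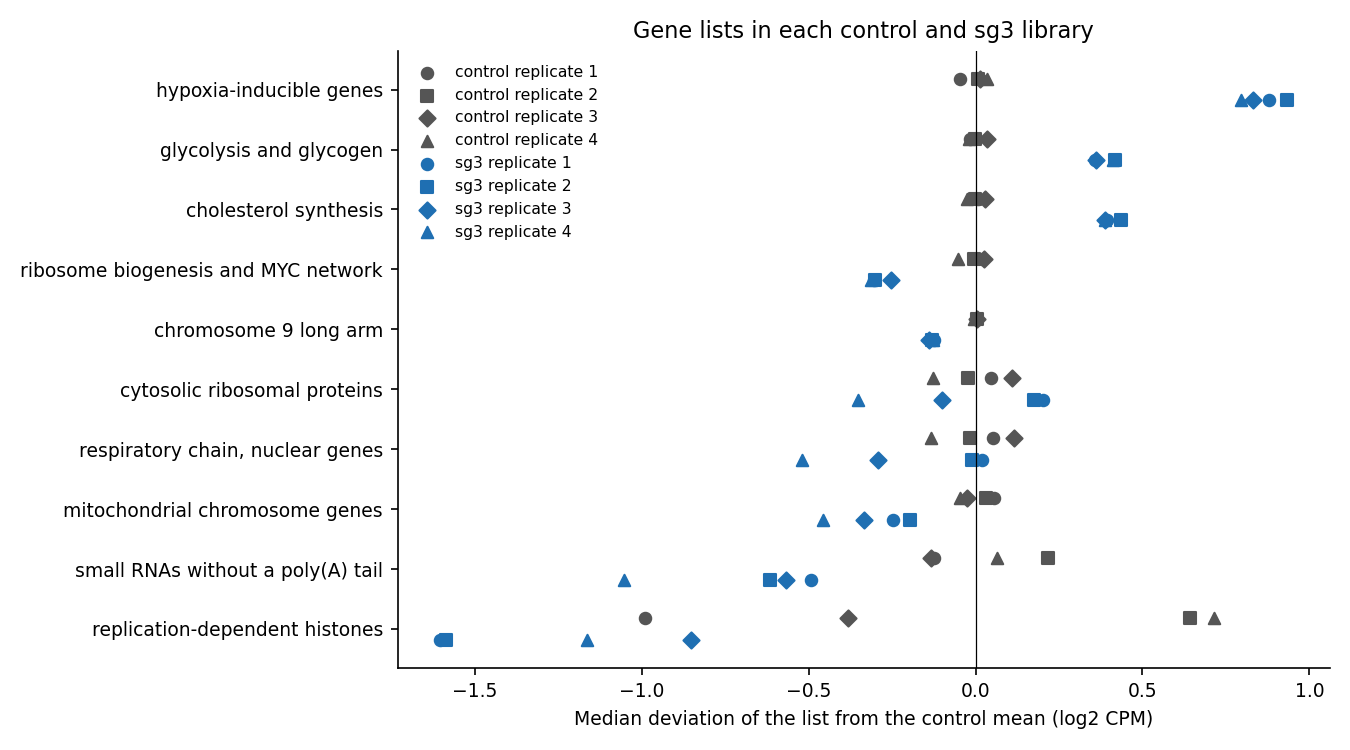
Median deviation of 10 gene lists from the control mean (log2 CPM, horizontal axis) in each control library (grey) and sg3 library (blue), with 1 marker shape per replicate number. Hypoxia, glycolysis, sterol and ribosome biogenesis lists separate sg3 from control with little spread, while histones spread from -0.99 to 0.71 among controls and respiratory chain genes from -0.52 to 0.02 among sg3 libraries.

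Nuclear genes of the respiratory chain and ribosomal protein genes differed within the sg3 group. The median of 76 respiratory chain genes was 0.02, -0.01, -0.29 and -0.52 in sg3 libraries 1 to 4, and that of 77 ribosomal protein genes 0.20, 0.17, -0.10 and -0.35. The control medians ran from -0.13 to 0.11 for each list. For ribosomal proteins sg3 libraries 1 and 2 lay above all controls and library 4 below them, and for the respiratory chain libraries 1 and 2 lay among the controls and 3 and 4 below them. In the fit with every library 22 respiratory chain genes fell and 3 rose, and without sg3 libraries 3 and 4 these counts were 3 and 6. Leaving out one library at a time gave 9 falls without sg3 library 3, 12 without sg3 library 4, 13 without control library 1, 10 without control library 3 and 34 without sg3 library 1. For ribosomal proteins the counts were 5 falls and 9 rises, and 4 and 47 without sg3 libraries 3 and 4, with 16 rises when sg3 library 4 alone was left out. NDUFS5 (-0.43), ATP5MPL (-0.51) and RPL35 (-0.47) lost their calls without sg3 libraries 3 and 4, and RPLP0 (0.27) kept its own. Transcript length moved with the libraries: in the 3503 genes with the shortest summed exons (up to 2398 bases) the median was 0.03, 0.03, -0.04 and -0.08 in sg3 libraries 1 to 4. In control libraries 1 to 4 it was 0.014, 0.002, 0.039 and -0.045, so only sg3 library 4 lay outside the control range. The part of transcript length in these values was not tested.

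Of the 13 genes of the mitochondrial chromosome 10 fell and none rose (median -0.31, sg2 -0.08). CYTB, a subunit of complex III, measured 1507, 1483, 1436 and 1378 CPM in control and 966, 986, 976 and 989 CPM with sg3. Its sg3 libraries were level with each other and wholly below control (-0.57 ± 0.04, SE, adjusted p = 1.79e-07 by edgeR). ATP8, a short gene, measured 281, 319.9, 278 and 198 CPM and 247, 231, 129.7 and 89.2 CPM, with overlap between groups, and its call was lost in 9 alternatives (-0.18 without sg3 libraries 3 and 4). Without those libraries 7 of 13 fell.

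Changes were uneven over chromosomes. On chromosome 14, 41.0% of 405 genes fell and 14.8% rose, with a median of -0.12. On chromosome 9, which holds KDM4C, 36.1% of 540 genes fell and 17.2% rose, and on chromosome 12, 13.8% of 756 fell and 31.1% rose, with a median of 0.06. Over all genes the shares were 22.2% and 21.9%.

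The shift on chromosome 9 lay on the long arm, away from the cut. Of 396 long-arm genes 168 fell and 59 rose, with medians of -0.12, -0.13, -0.14 and -0.13 in sg3 libraries 1 to 4, and between -0.01 and 0.01 in the controls. All 4 sg3 libraries had nearly the same value, and with sg2 the median was -0.13. Without control libraries 2 and 4, 133 genes fell and 44 rose. On the short arm, of 122 genes between the cut and the centromere 27 rose and 23 fell (median 0.00), and of 21 between the cut and the telomere 7 rose and 3 fell (median 0.08). Of the latter the nucleolar protein PUM3 fell by 0.40, the peptidase ERMP1 rose by 0.51, and VLDLR, a lipoprotein receptor that is also in a list of ATF4 stress genes, rose by 1.60. On the long arm the glucose transporter SLC2A8 fell by 1.99.

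In windows of 20 Mb on chromosome 14 the median lay between -0.16 and -0.10 in each of 5 windows with at least 20 genes. On the long arm of chromosome 9 it lay between -0.15 and -0.11 in 4 windows, and in the 2 windows of the short arm it was 0.02 and 0.01. On chromosome 12 it ranged from -0.04 to 0.12 over 7 windows, with the highest value between 40 and 60 Mb, where 40.8% of 218 genes rose. With sg2 the medians over the whole chromosomes were -0.09 for chromosome 9, 0.06 for 12 and -0.10 for 14. Number of chromosome copies was not measured in these data.

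**Figure D5:**
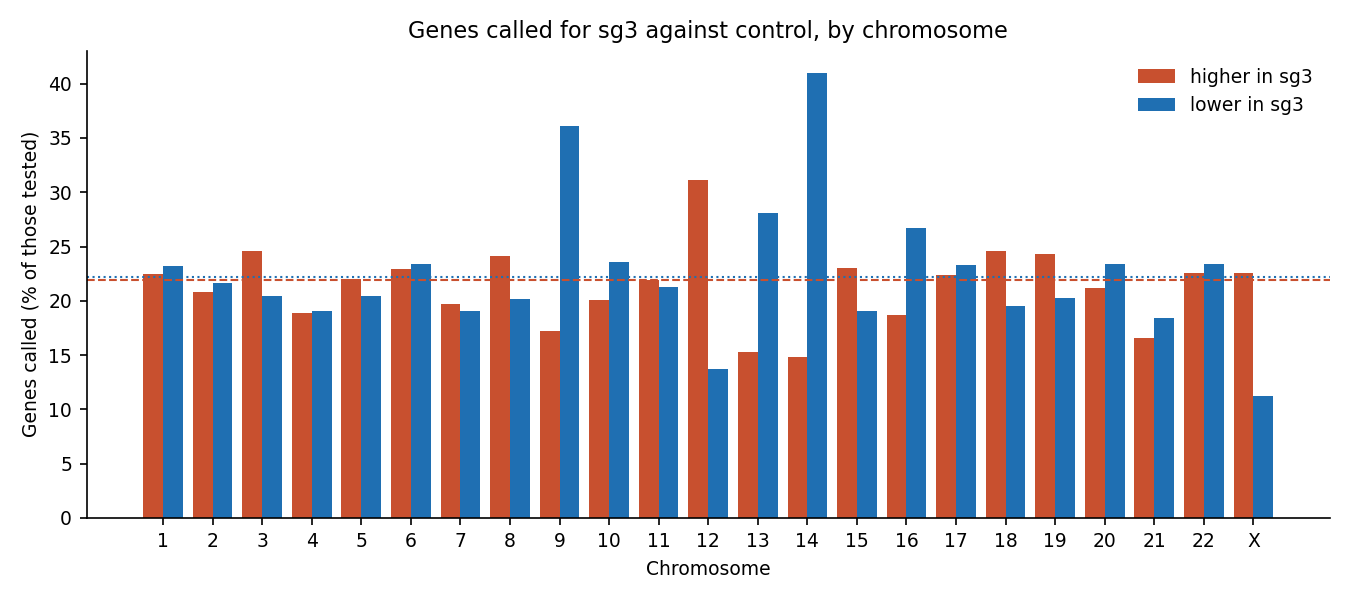
Share of tested genes called higher (orange bars) and lower (blue bars) with sg3 on each chromosome, in percent from 0. Dashed and dotted lines give the shares over all genes, 21.9% higher and 22.2% lower. Chromosome 14 has 41.0% lower and chromosome 9 36.1% lower, and chromosome 12 has 31.1% higher.

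The comparison of sg3 with sg2 asked where the guides differ. With edgeR 1 of 13996 genes (0.00714%) was called, 2098 had an unadjusted p below 0.05, and DESeq2 called 121 and limma-voom 18. Leaving out 1 library gave between 0 calls (without sg3 library 1 or 3, or sg2 library 2) and 201 (without sg2 library 4). The called gene was KIT, the receptor of stem cell factor. It measured 872, 887, 864 and 890.4 CPM in control, 1047, 1099, 1209 and 1222 CPM in sg2 libraries 1 to 4 and 1429, 1424, 1424 and 1493 CPM with sg3. The sg3 libraries were wholly above those of sg2, which were wholly above control, and the difference between the guides was 0.33 ± 0.04 (SE, adjusted p = 0.0155 by edgeR). Against control KIT rose by 0.72 with sg3. The sg3 libraries lay wholly above those of sg2 for 477 genes (3.41%) and wholly below for 356 (2.54%). KDM4C was higher with sg3 than with sg2 by 0.40 ± 0.07 (SE, adjusted p = 0.0641) and was not called. Both guides were compared with the same control libraries, so their changes against control are not independent. By that comparison 3963 genes (28.3%) were called with sg2.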

How the data were processed

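Total RNA of 12 HEL libraries was sequenced as paired, strand-specific reads. Per the authors, reads passed Trimmomatic 0.39, STAR 2.7.4a (genome hg38) and featureCounts 2.0.1, and the stated counting options name no strand. The deposited values are raw counts for 38551 genes. Genes were kept by edgeR's filterByExpr (minimum count 10, total 15), leaving 13996. All 12 libraries entered one edgeR 4.0.16 quasi-likelihood fit in R 4.3.3 with TMM factors, a term per group and Benjamini-Hochberg adjustment over the genes tested, and a gene was called at an adjusted p below 0.05. DESeq2 1.42.0, limma-voom (limma 3.58.1), other scalings, filters, thinning and left-out libraries were alternatives; those leaving out sg3 libraries 3 and 4 or control libraries 2 and 4 were chosen after seeing the data.

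The members and lists were chosen with earlier results of these data known. Named genes were the 15 largest non-overlapping rises and falls, up to 4 called members and the most abundant member of each list, and genes the study names. Chosen after values were seen were EGLN3, LDHA, NECTIN1, PFKFB3, PGK1, PMVK, SETD2 and VEGFA. Some genes that the rule names are not reported here. The fit was tested on simulated data with the real means. For sg3 against control it called 71 of 100 genes given a log2 change of 0.5, 90 of 99 given 1, and 16 of 13648 left unchanged. Counts were drawn independently for each gene and library and few genes were changed. Splits among libraries like the real ones were thus not simulated, and the rate of false calls in the real data was not measured. Motifs were searched in 250 bases before the start sites of RefSeq.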

Additional observations from a re-analysis of the deposited data

Results flagged for a closer look

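In 294 groups of 4 libraries, over the genes named, 14 (4.76%) had a library set apart from the other libraries of its group by more than Dixon's 95% critical value, and chance gives about 5% of such groups. Of the 14 cases 3 fell on sg3 library 4 and 2 on sg3 library 3. In sg3 library 4, KIT was high at 1493 CPM (the others 1424 to 1429 CPM), RMRP was low at 13.5 CPM (32.2 to 35.2 CPM) and VLDLR was low at 1.58 CPM (2.44 to 2.50 CPM). In sg3 library 3, TP53INP1 was low at 11.7 CPM (13.9 to 14.3 CPM) and H4C2 was high at 8.23 CPM (4.11 to 4.77 CPM). In sg3 library 1, PDGFRB was high at 4.71 CPM (3.21 to 3.44 CPM).

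Among the controls, library 3 was high for SLC2A3 at 315 CPM (302 to 304 CPM) and for LDHA at 773 CPM (699.7 to 709 CPM). Control library 4 was low for CEBPA at 1.202 CPM (1.75 to 1.86 CPM), for CD79B at 2.25 CPM (3.05 to 3.21 CPM) and for PFKFB3 at 59.3 CPM (64.0 to 64.8 CPM). Control library 1 was low for BMF at 5.02 CPM (5.29 to 5.33 CPM) and for PDGFRB at 1.53 CPM (2.02 to 2.04 CPM), and high for SAP30-DT at 3.16 CPM (2.63 to 2.69 CPM). Leaving out the library named changed the direction between sg3 and control for none of these genes.

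KIT differed between the guides by 0.33 on the log2 scale in the direct test of sg3 against sg2.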

How the results depend on the processing

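Over 25 alternatives the count of genes called for sg3 against control ran from 4802 (without control libraries 2 and 4) to 6490 (limma-voom), with 5977 by DESeq2. Of 141 called genes followed, 126 kept their call and direction in every alternative and 15 lost the call in at least 1. The fall of KDM4C kept its direction and lost its call with RLE factors (-0.17), upper-quartile factors (-0.14), a minimum count of 50 (-0.15), protein-coding genes only (-0.16), thinning (-0.14), without sg3 libraries 3 and 4 (-0.20) and without control libraries 2 and 4 (-0.14), and leaving out 1 library gave -0.18 to -0.15. Genes called for sg3 against sg2 numbered 367 with no filter, 121 by DESeq2, 18 by limma-voom, 0 by edgeR with only these groups fitted (1767 at an unadjusted p below 0.05), 0 without sg2 libraries 1 and 2 (768), 0 without sg3 libraries 3 and 4 (1443), and 0 to 201 without 1 library (1340 to 2421 at an unadjusted p below 0.05 where the count was 0). The count for sg2 against control was 2551 without control libraries 2 and 4. The causes were not tested.

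Deviations from the group mean had r of 0.10, -0.10, -0.15 and 0.18 between same-numbered control and sg3 libraries. Between differently numbered libraries r ran from -0.22 to 0.21. Libraries within each group also split, so these values cannot tell whether the numbers pair the libraries. With the replicate number as a block 6012 genes were called for sg3 against control and 25 for sg3 against sg2.

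The change of KDM4A, sg3 against control, was near 0 and took the other sign with no filter (-0.0039), with the replicate block (-1.22e-04), without sg3 libraries 3 and 4 (-0.044), without control libraries 2 and 4 (-0.0045) and without some single libraries, over which it ranged from -0.032 to 0.025. JAK2 did so without control library 3, with a range of -0.0066 to 0.044 over single libraries. Total counts of 13247734 to 78966125 leave genes below about 1 CPM with few counts a library, and changes there are imprecise.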
